A study of Mus musculus with 88 samples.

Results

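Brca1, Brca2, Rad51c, Rad54l, Blm, Exo1, Fancd2, Chek1 and Pif1 code for proteins that repair broken DNA by homologous recombination or that stop the cell cycle while DNA is damaged. These 9 genes were picked by name, with earlier results of these data known, so their counts beside the shares of all genes are descriptive. Each was represented by the probe that the platform annotation assigns to it alone and, where there were several such probes, by the one with the highest mean log2 intensity over all 88 arrays. All 9 were measured, among 18069 genes with a probe of their own, and all 9 passed the filter on dim probes, which left 13465 genes for testing.

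The study irradiated 4 mouse tumours growing in the hind legs of C3H/HeNrs mice and measured gene expression on one-colour oligonucleotide arrays. NR-S1 and SCCVII are labelled as squamous cell carcinomas (SCC) of spontaneous origin, NFSa as a spontaneous fibrosarcoma, and #8520 as a fibrosarcoma that radiation had induced. All 4 tumours came from C3H mice, and the age of the animals was not given in the sources used here. In the carbon arm each tumour was untreated or received a single dose of 30 Gy of carbon ions from a 290 MeV beam, with RNA taken at 6 h, day 1 or day 3. In the gamma arm each tumour was untreated or received 30 Gy or 50 Gy of gamma rays, with RNA taken at the same times. Each arm had untreated arrays of its own, and both gamma doses were compared with the same untreated arrays. The 44 combinations of tumour and treatment had 2 arrays each. The labels did not say that these were separate animals, so the tests measure the spread between such pairs of arrays, which may be technical. The samples were whole tumours, in which fewer cells of a type and less RNA per cell cannot be told apart.

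Homologous recombination copies the missing sequence from the sister chromatid, and is therefore used mainly by cells that have replicated their DNA. The broken ends are first cut back to single strands by nucleases such as EXO1 with the BLM helicase. BRCA1 helps to start this step, BRCA2 and the product of Rad51c then prepare the single strands for the search for a matching sequence, and the motor protein RAD54L helps the strand to invade it. CHEK1 is the kinase that holds cells back from mitosis and slows replication origins when the ATR kinase senses single-stranded DNA. PIF1 is a helicase that unwinds folded DNA and supports replication through difficult stretches, and FANCD2 is the central protein of the Fanconi anaemia pathway for DNA crosslinks. Many of these genes are transcribed mostly in S and G2 phase, in part through E2F binding sites, CCAAT boxes and the cell cycle homology element.

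Since the members are known as cell cycle genes, the promoters on record were searched for those 3 elements. RefSeq promoter windows (GRCm38.p6, 250 bases before to 50 bases after a start) were on hand for 6 members. The search covered both strands. For E2F the letters were TTCCCGC with the variants written TTCGCGC, then TTGGCGC, and last TTGCCGC. The CCAAT box was searched as CCAAT. The cell cycle homology element was searched as TTTGAA or, in its other form, TTCGAA. No matches overlapped among the members. The stretches below run from base -190 to base 10 around the start, with E2F and CCAAT matches in capitals. The Chek1 stretch runs from base 21 to base 50, where its match lies.
Brca1 promoter, chr11:101551946-101552145, minus strand: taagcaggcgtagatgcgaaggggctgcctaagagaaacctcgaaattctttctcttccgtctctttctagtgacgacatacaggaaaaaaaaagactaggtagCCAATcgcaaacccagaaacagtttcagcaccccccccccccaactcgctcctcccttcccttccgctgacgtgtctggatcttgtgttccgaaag
Brca2 promoter, chr5:150522431-150522630, plus strand: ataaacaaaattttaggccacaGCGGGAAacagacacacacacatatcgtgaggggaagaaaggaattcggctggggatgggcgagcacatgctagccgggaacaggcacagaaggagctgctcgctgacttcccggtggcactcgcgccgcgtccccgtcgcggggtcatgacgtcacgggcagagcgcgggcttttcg
Rad51c promoter at its outermost start, chr11:87404945-87405144, minus strand: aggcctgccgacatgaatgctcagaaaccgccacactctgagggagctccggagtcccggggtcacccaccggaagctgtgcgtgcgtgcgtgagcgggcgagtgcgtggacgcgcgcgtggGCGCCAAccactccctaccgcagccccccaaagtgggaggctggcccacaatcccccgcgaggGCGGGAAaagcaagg
Rad54l promoter, chr4:116123681-116123880, minus strand: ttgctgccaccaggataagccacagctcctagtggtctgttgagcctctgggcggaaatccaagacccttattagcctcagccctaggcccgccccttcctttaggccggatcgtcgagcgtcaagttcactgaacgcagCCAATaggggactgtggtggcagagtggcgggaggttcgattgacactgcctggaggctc
Blm promoter, chr7:80534989-80535188, minus strand: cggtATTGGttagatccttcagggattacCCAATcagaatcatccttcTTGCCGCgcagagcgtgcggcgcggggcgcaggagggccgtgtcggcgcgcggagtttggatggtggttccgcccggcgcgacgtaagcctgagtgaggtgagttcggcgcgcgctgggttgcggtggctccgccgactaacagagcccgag
Chek1 promoter, chr9:36726609-36726638, minus strand: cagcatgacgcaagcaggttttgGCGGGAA

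An E2F match lay in a window of 5 of the 6 members, Brca1, Brca2, Rad51c, Blm and Chek1, whereas 10.9% of 27025 genes had one. The Brca1 match lay at bases 22 to 28, outside the stretch shown. A CCAAT match lay in the windows of 3 of 6 members, Brca1, Rad54l and Blm, against 41.1% of genes. The cell cycle homology letters were found in 0 of 6, against 21.7% of genes. A match describes the letters only, and no binding was measured.

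The arrays were alike in brightness, with medians from 1.02 to 1.07, so an intensity here is close to a multiple of the array's median. Over the genes tested, the correlation between the paired arrays was 0.9896 to 0.9981. The 8 arrays of SCCVII and #8520 taken at day 1 and day 3 after 50 Gy had brighter dim probes, with a 1st percentile of 0.297 to 0.378 against 0.0128 to 0.134 on the other 80. The summed intensity of 7 keratinocyte markers was 823 to 1420 on the untreated NR-S1 arrays. It was 1.65 to 3.12 in SCCVII, no higher than the 3.6 to 4.79 of NFSa and close to the 2.3 to 2.58 of #8520, so SCCVII did not show the keratins of its labelled type. The 7 fibroblast and matrix markers summed to 221 to 546 over all untreated arrays, and were present in each tumour.

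Before treatment, all 9 genes were measured in all 4 tumours, and the level of each differed between tumours (limma F test over the untreated arrays, adjusted p below 0.05 for 9 of 9, with 91.3% of all genes passing). Levels are given as log2 intensity, mean ± SD over the 4 untreated arrays of both arms. This SD includes the difference between the arms. The tests between tumours use the spread within the pairs of arrays only, so they do not allow for that difference. Brca1 was highest in NR-S1 (4.55 ± 0.17), then SCCVII (4.16 ± 0.25), #8520 (3.98 ± 0.17) and NFSa (3.65 ± 0.21), and each of its neighbours in that order differed. By arm, SCCVII was above #8520 for Brca1 in the gamma arm only (4.37 and 3.96), and in the carbon arm they were at 3.95 and 3.99. NFSa was also the lowest for Brca2 at 0.11 ± 0.64, for Rad51c at -0.40 ± 0.42 and for Blm at 2.12 ± 0.39, with lower values in its gamma arm than in its carbon arm. In the carbon arm Blm was at 2.45 in NFSa and 2.39 in #8520, Rad51c at -0.04 in NFSa and -0.06 in NR-S1, and Brca2 at 0.67 in NFSa and 0.69 in #8520. Brca2 did not differ between NR-S1 (1.06 ± 0.10) and SCCVII (1.05 ± 0.21), and was lower in #8520 (0.48 ± 0.26).

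Rad54l and Pif1 were both highest in SCCVII, at 3.51 ± 0.23 and 3.80 ± 0.33, and lowest in NR-S1, at 3.02 ± 0.10 and 3.02 ± 0.25. Rad54l in NFSa (3.04 ± 0.51) did not differ from NR-S1, and Pif1 in NFSa (3.27 ± 0.46) did not differ from #8520 (3.45 ± 0.31). The Rad54l means of NFSa and NR-S1 were 3.48 and 3.00 in the carbon arm, and 2.60 and 3.04 in the gamma arm. Chek1 was higher in #8520 (2.99 ± 0.43) and SCCVII (2.89 ± 0.15), for which the difference did not pass, than in NFSa (2.56 ± 0.88) and NR-S1 (2.53 ± 0.11). That order was not the same in both arms: the NFSa mean of Chek1 was 3.31 in the carbon arm, where SCCVII was at 2.76 and #8520 at 3.36, and 1.80 in the gamma arm. Exo1 ran from 1.32 ± 0.22 in NR-S1 to 1.79 ± 0.15 in #8520, and Fancd2 from 0.97 ± 0.30 in NR-S1 to 1.42 ± 0.22 in NFSa. In the gamma arm alone Exo1 was lowest in NFSa (1.26) and highest in SCCVII (1.91), and Fancd2 was lowest in SCCVII (1.05). Of the 54 differences between tumours, 6 for each gene, 41 passed the test, where 65.9% of those of all genes did.

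The untreated arrays of the arms were not interchangeable. In NFSa all 9 members differed between the untreated arrays of the carbon and gamma arms (49.2% of all genes did), and 8 were higher in the carbon arm (29% of all genes). Chek1 read 9.83 and 10.1 in the carbon arm of NFSa and 3.61 and 3.36 in the gamma arm, a log2 difference of 1.52 (adjusted p = 4.2e-21). Brca2 differed by 1.10, Rad54l by 0.88 and Pif1 by 0.78 in the same direction. In those NFSa arrays the summed T and NK cell markers were 14.8 to 15 in the carbon arm and 86.3 to 89.1 in the gamma arm, the neutrophil markers 15.9 to 17 and 82.8 to 90, and 17 of 21 proliferation genes were higher in the carbon arm. Their part in the difference was not tested. The arms also differed for 6 members in #8520 (35.6% of genes), 8 in SCCVII (46.4%) and 4 in NR-S1 (49.3%), and Pif1 was higher in the carbon arm in all 4 tumours. Responses below are therefore against the untreated arrays of the same tumour and arm, and the beam comparison is also given without that subtraction.

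**Figure D1:**
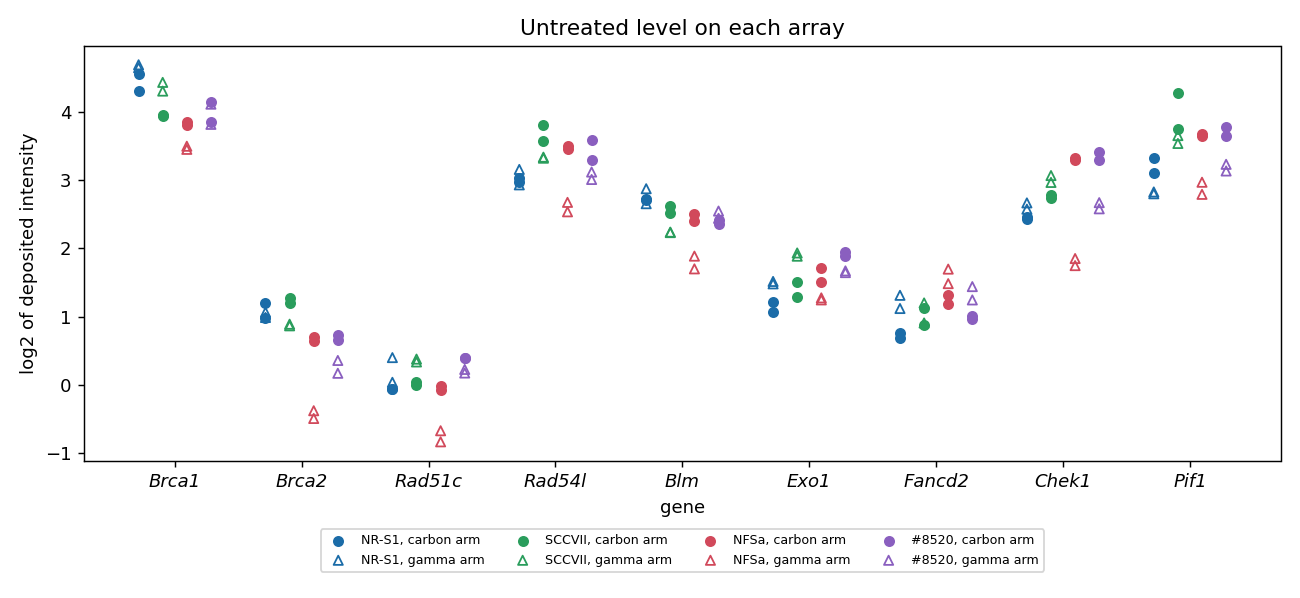
Untreated log2 intensity of each of the 9 genes (x axis) on each untreated array, with colour for the tumour, filled circles for the carbon arm and open triangles for the gamma arm. The NFSa points of Chek1 lie in separate pairs, 1.52 apart on the log2 scale, while the 4 NR-S1 points of Brca2 lie close together (SD 0.10).

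Averaged over the 4 tumours, 8 of the 9 genes fell at 6 h and at day 3 after carbon ions, and Fancd2 passed in neither. The counts of members lower were 8 at 6 h, 7 at day 1 and 8 at day 3, where 19.5%, 16.6% and 41.8% of all genes were lower (limma on log2 intensity, Benjamini-Hochberg over all genes tested, adjusted p below 0.05). The median log2 change of the 9 members was -0.39, -0.19 and -1.22 at these times, and the median of all genes was -0.01, 0.01 and -0.08. After 30 Gy of gamma rays 7, 5 and 8 members were lower, against 18.4%, 21.7% and 30.9% of genes, with member medians of -0.19, -0.26 and -0.89. After 50 Gy 8, 7 and 8 were lower, against 26.9%, 45.1% and 44.7% of genes, with member medians of -0.55, -0.37 and -0.90, and Brca2 was higher at day 1 (23.1% of genes were). The members' median was thus lowest at day 3 after each treatment, and after carbon ions and 50 Gy it was nearer to 0 at day 1 than at 6 h. The means at day 1 after 50 Gy rest largely on #8520. There the members' median was -1.10, against -0.12 in NR-S1, -0.06 in SCCVII and -0.07 in NFSa. The medians of all genes were -0.17, -0.02, -0.22 and 0.06 in the same order. The #8520 and SCCVII arrays of that time are among the 8 with brighter dim probes. Values per tumour follow by role, beginning with the checkpoint kinase.

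Chek1, which codes for the checkpoint kinase, was lower at 6 h after every treatment in every tumour. In NR-S1 it read 5.41 and 5.51 on the untreated carbon-arm arrays and 2.90 and 3.02 at 6 h after carbon ions. In SCCVII the values were 6.87 and 6.68 before and 3.62 and 3.89 after. In NFSa they were 9.83 and 10.1 before and 4.06 and 4.52 after, and in #8520 10.7 and 9.85 before and 5.01 and 4.64 after. Untreated and irradiated arrays did not overlap in any tumour. Over all genes and responses, both irradiated arrays lay below both untreated ones in 35.7%. The mean log2 change was -1.01 (SE 0.043, adjusted p = 1.5e-26), a 2.01-fold fall, and the single tumours ranged from -0.85 in SCCVII to -1.22 in NFSa.

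By day 1 Chek1 had parted between the tumours. It read 5.93 and 6.64 in NR-S1, at or above the untreated arrays, with a log2 change of 0.20 that did not pass. It read 3.66 and 3.97 in #8520, lower than at 6 h, with a log2 change of -1.43. SCCVII and NFSa lay between, at -0.38 and -0.66. The difference between tumours passed the F test at day 1 (adjusted p = 4.3e-15). At day 3 Chek1 was low in all 4 tumours again, at 2.20 and 2.02 in NR-S1, 3.56 and 3.90 in SCCVII, 3.38 and 3.55 in NFSa and 3.58 and 3.29 in #8520, a mean log2 change of -1.33 (SE 0.043, adjusted p = 9.8e-33).

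Gamma rays gave the same gene a mean change of -0.77 at 6 h, -0.59 at day 1 and -0.93 at day 3 after 30 Gy, and of -1.08, -0.33 and -0.90 after 50 Gy, each past the threshold. The day 1 mean after 50 Gy rests largely on #8520, at a mean log2 intensity of 1.53 against 2.62 untreated. NR-S1 was then at 2.50 against 2.62, SCCVII at 3.12 against 3.02 and NFSa at 1.58 against 1.80. In #8520 the 30 Gy values were 5.97 and 6.36 untreated, 2.59 and 2.48 at 6 h, 1.95 and 1.86 at day 1 and 1.79 and 1.71 at day 3, so the gene went on falling. In NR-S1 they were 6.34 and 5.95 untreated, 5.01 and 5.28 at 6 h, 5.71 and 6.03 at day 1 and 4.41 and 4.58 at day 3, a small decline. Over the 36 combinations of tumour, treatment and time, Chek1 was called lower in 31 and higher in 0, the most calls of the 9 members. Over all genes 19.9% of such combinations were called lower.

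**Figure D2:**
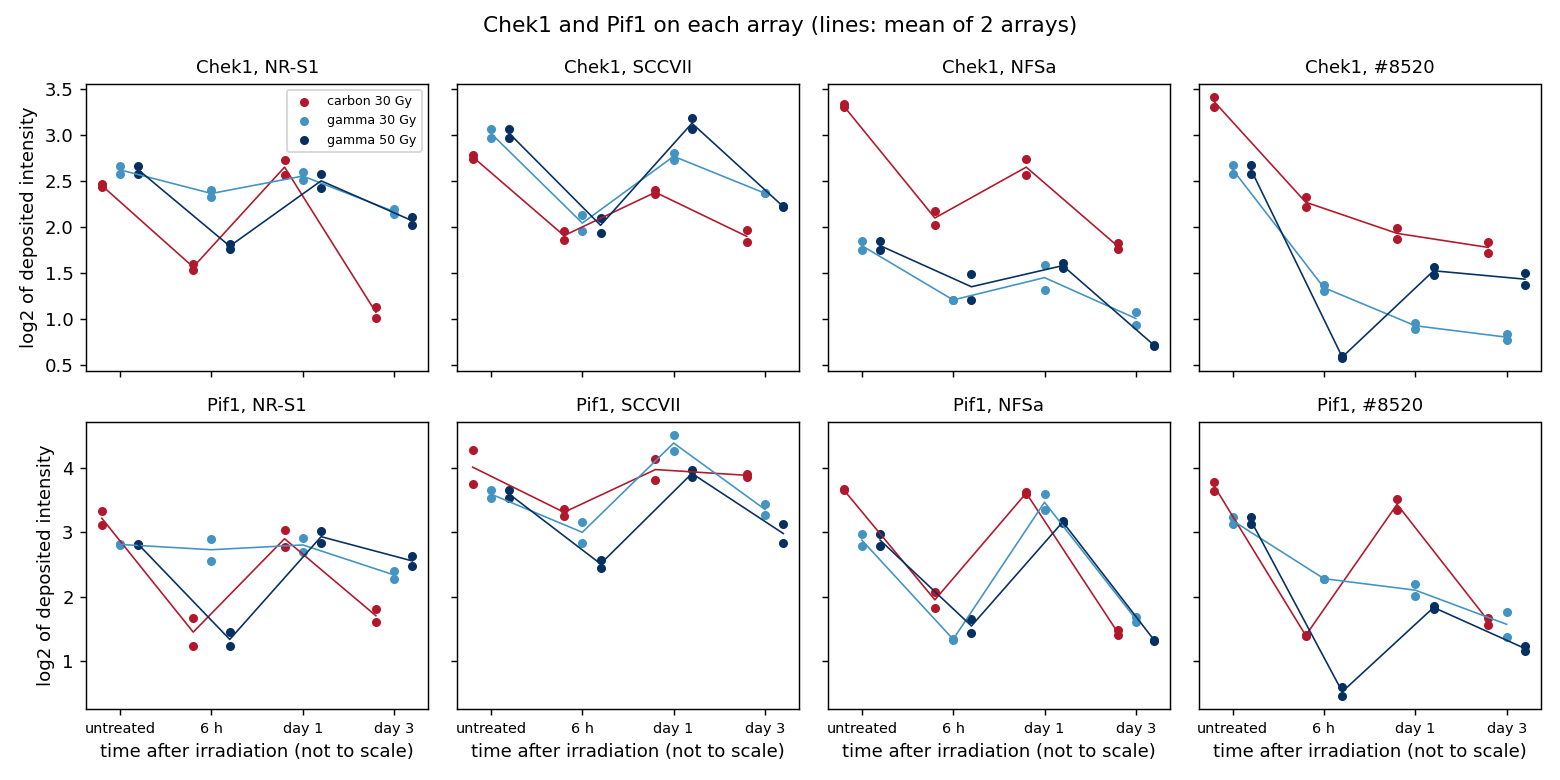
Chek1 and Pif1 on every array, 1 panel a tumour, from untreated to day 3, as log2 of the deposited intensity (y axis, times not to scale), with 1 point an array, lines through the means of pairs and colour for the treatment. Pif1 drops at 6 h and is back near the untreated arrays at day 1 in most tumours, whereas Chek1 in #8520 stays low through day 3.

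Pif1, the helicase, had the largest 6 h change of the 9 members after carbon ions and after 50 Gy of gamma rays. In #8520 it read 12.5 and 13.7 untreated and 2.63 and 2.64 at 6 h after carbon ions. In NFSa the values were 12.8 and 12.6, then 3.55 and 4.21, and in NR-S1 8.61 and 10.1, then 3.17 and 2.35. SCCVII changed least, from 13.4 and 19.4 to 10.3 and 9.53. The irradiated arrays lay below both untreated ones in each tumour. The mean log2 change was -1.62 (SE 0.071, adjusted p = 4.1e-26), a 3.08-fold fall, and it differed between tumours (F test, adjusted p = 5.6e-08), from -0.70 in SCCVII to -2.32 in #8520.

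At day 1 after carbon ions Pif1 had come most of the way back. It read 6.82 and 8.17 in NR-S1, 14.0 and 17.7 in SCCVII, 12.4 and 12.1 in NFSa and 11.5 and 10.2 in #8520. No single tumour differed from its untreated arrays, and the mean of -0.17 was close to the threshold (adjusted p = 0.0461), a call lost without 10 of the 16 arrays in turn. The rise from 6 h to day 1 was 1.45 (adjusted p = 1.4e-23), the largest among the members, and 20% of all genes rose over that interval. At day 3 it was low again in NR-S1 (3.03 and 3.50), NFSa (2.66 and 2.80) and #8520 (3.20 and 2.96), but read 14.97 and 14.6 in SCCVII, where the change of -0.13 did not pass. The tumours differed at day 3 as well (F test, adjusted p = 3.7e-13).

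After 50 Gy of gamma rays the mean changes of Pif1 were -1.64 at 6 h (adjusted p = 1.5e-26), -0.16 at day 1 (adjusted p = 0.0479) and -1.10 at day 3 (adjusted p = 1.0e-19). The day 1 call was lost without any of 11 of the 16 arrays, and over NR-S1 and NFSa, which leaves out both the arrays with brighter dim probes and 2 of the 4 tumours, the value was 0.20. After 30 Gy the mean at 6 h was -0.78 (adjusted p = 2.2e-13), but in NR-S1 Pif1 read 5.89 and 7.46 against 7.09 and 6.96 untreated, with overlapping arrays and a change of -0.08. At day 1 after 30 Gy it was above the untreated level in SCCVII, at 19.2 and 22.8 against 12.6 and 11.6, and below it in #8520, at 4.03 and 4.57 against 8.77 and 9.38. In NFSa it was above the untreated level as well, with a mean intensity of 11.1 against 7.37, a change of 0.59 that passed.

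Blm and Exo1 act on the broken ends. Blm, the RecQ helicase that is mutated in Bloom syndrome, fell by a mean of 0.39 on the log2 scale at 6 h after carbon ions, by 0.37 at day 1 and by 1.44 at day 3 (SE 0.057, adjusted p = 9.9e-29 at day 3), the largest day 3 change but for Pif1. In #8520 it read 5.12 and 5.34 untreated and 1.67 and 1.61 at day 3, and in NFSa 5.70 and 5.27, then 1.75 and 1.71. In NR-S1 it went from 6.53 and 6.57 to 2.63 and 2.51, and in SCCVII from 5.70 and 6.13 to 2.76 and 2.83. The day 3 arrays lay between 1.61 and 2.83, all below the lowest untreated array. After gamma rays Blm was lower at each time on average, with day 3 changes of -0.95 after 30 Gy and -1.16 after 50 Gy. Its 6 h change after 30 Gy was small (-0.14), and that call was lost without any of 9 of the 16 arrays.

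Exo1, the nuclease of long-range resection and of mismatch repair, changed less. After carbon ions it fell by means of 0.34, 0.19 and 0.64 on the log2 scale over the 3 times (SE 0.048, adjusted p = 2.9e-17 at day 3), the last a 1.56-fold fall. #8520 gave the largest day 3 change, -1.20, from 3.85 and 3.69 untreated to 1.77 and 1.52. In SCCVII the change of -0.16 did not pass, with 2.84 and 2.44 untreated and 2.33 and 2.39 at day 3. Gamma rays gave mean day 3 changes of -0.46 after 30 Gy and -0.72 after 50 Gy.

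The 4 genes that act in the search for and invasion of the matching strand, or in preparing it, were close to one another at day 3 after carbon ions, with mean log2 changes of -1.05 for Rad51c, -1.15 for Brca1, -1.22 for Brca2 and -1.42 for Rad54l (adjusted p from 4.4e-24 for Rad51c to 2.1e-27 for Rad54l). These are falls of 2.08-fold to 2.68-fold. At 6 h they were smaller and all past the threshold, from -0.33 for Brca1 to -0.48 for Rad51c. At day 1 the change of Brca1 (-0.01) did not pass, and Brca2 (-0.16, adjusted p = 0.0307) was called by a margin that leaving out any of 8 of the 16 arrays removed.

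Brca1, the tumour suppressor of hereditary breast and ovarian cancer, read 14.4 and 17.6 in untreated #8520, 12.5 and 11.9 at 6 h, 15.4 and 17.1 at day 1 and 6.03 and 5.38 at day 3 after carbon ions. In NFSa it read 14.4 and 14.0, then 15.01 and 15.5, 12.4 and 11.4, and 4.73 and 4.93. In NR-S1 the same series was 19.7 and 23.4, then 12.3 and 14.0, 22.3 and 25.5, and 10.9 and 10.7. By this probe the change at 6 h passed in NR-S1 (-0.71), #8520 (-0.39) and SCCVII (-0.31) and did not in NFSa (0.10), and that at day 3 passed in all 4 tumours. After 30 Gy of gamma rays the day 3 change was -1.69 in #8520 and -1.12 in NFSa, and -0.25 and -0.21, neither past the threshold, in NR-S1 and SCCVII. Another Brca1 probe, dimmer by several log2 units, gave mean changes after carbon ions of -0.25, -0.30 and -0.64, where the main probe gave -0.33, -0.01 and -1.15. By the dimmer probe the day 1 change passed (adjusted p = 2.9e-06). At 6 h that probe gave -0.36 in NFSa and 0.05 in SCCVII, and at day 3 it gave 0.09 in SCCVII. Which tumours showed the early fall of Brca1, and its level at day 1, therefore depended on the probe.

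Brca2, the other gene of hereditary breast and ovarian cancer, went from 2.30 and 1.98 to 0.858 and 0.956 at day 3 after carbon ions in NR-S1, and from 1.57 and 1.66 to 0.643 and 0.580 in #8520. In SCCVII it went from 2.29 and 2.42 to 1.25 and 1.22, and in NFSa from 1.62 and 1.55 to 0.600 and 0.676. The 4 day 3 changes ranged from -0.93 to -1.40, and the F test between tumours did not pass (adjusted p = 0.0635). At day 1 after carbon ions it was higher than untreated in NR-S1, at 2.58 and 3.25, and lower in #8520, at 1.06 and 1.10. After 50 Gy its mean was above untreated at day 1 (0.14, adjusted p = 0.0412), a call lost without any of 10 of the 16 arrays, and below it by 0.46 at day 3.

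Rad54l, the motor protein of strand invasion, differed widely between tumours at day 3 after carbon ions. It read 12 and 9.80 untreated and 2.59 and 2.34 at day 3 in #8520, a change of -2.14. In SCCVII it read 11.9 and 13.9, then 8.20 and 8.07, a change of -0.66. NFSa and NR-S1 lay between at -1.78 and -1.11. After gamma rays the mean day 3 changes of Rad54l were -0.94 after 30 Gy and -1.19 after 50 Gy. At 6 h after 30 Gy its change was small (-0.15), and that call was lost without any of 9 of the 16 arrays.

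Rad51c, which acts in recombination after resection, was a dim probe, with untreated intensities from 0.560 to 1.32. It fell after every treatment and at every time on average. Its largest early change was in NR-S1, where it read 0.956 and 0.959 untreated and 0.429 and 0.492 at 6 h after carbon ions, a change of -1.06. In SCCVII the same comparison gave 0.997 and 1.03, then 0.908 and 0.960, a change of -0.12 that did not pass. Rad51c was called lower in 29 of the 36 combinations and higher in none. It was missing on 1 array, NFSa at day 3 after 50 Gy, which then rests on the other array.

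The changes of Fancd2 were small. Its intensities lay between 1.40 and 3.68, and in all 36 combinations its log2 change from the untreated arrays of its own arm lay between -0.32 and 0.28, with none past the threshold. Its untreated level differed between the arms in NR-S1, NFSa and #8520. Against the untreated arrays of both arms its mean change passed after carbon ions, at -0.17 at 6 h and -0.18 at day 1, and after 30 Gy of gamma rays, at 0.17 at day 1 and 0.23 at day 3. At day 3 after carbon ions it read 1.75 and 1.84 in NR-S1 against 1.69 and 1.602 untreated, and 1.97 and 2.15 in #8520 against 2.02 and 1.95. The mean change was 0.14 (SE 0.066, adjusted p = 0.0591), with an unadjusted 95% interval of 0.01 to 0.27. The probe is annotated to a cDNA clone and not to a curated RefSeq transcript, so which Fancd2 transcript it reads was not settled. It was missing on 1 array, NFSa at 6 h after carbon ions.

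**Figure D3:**
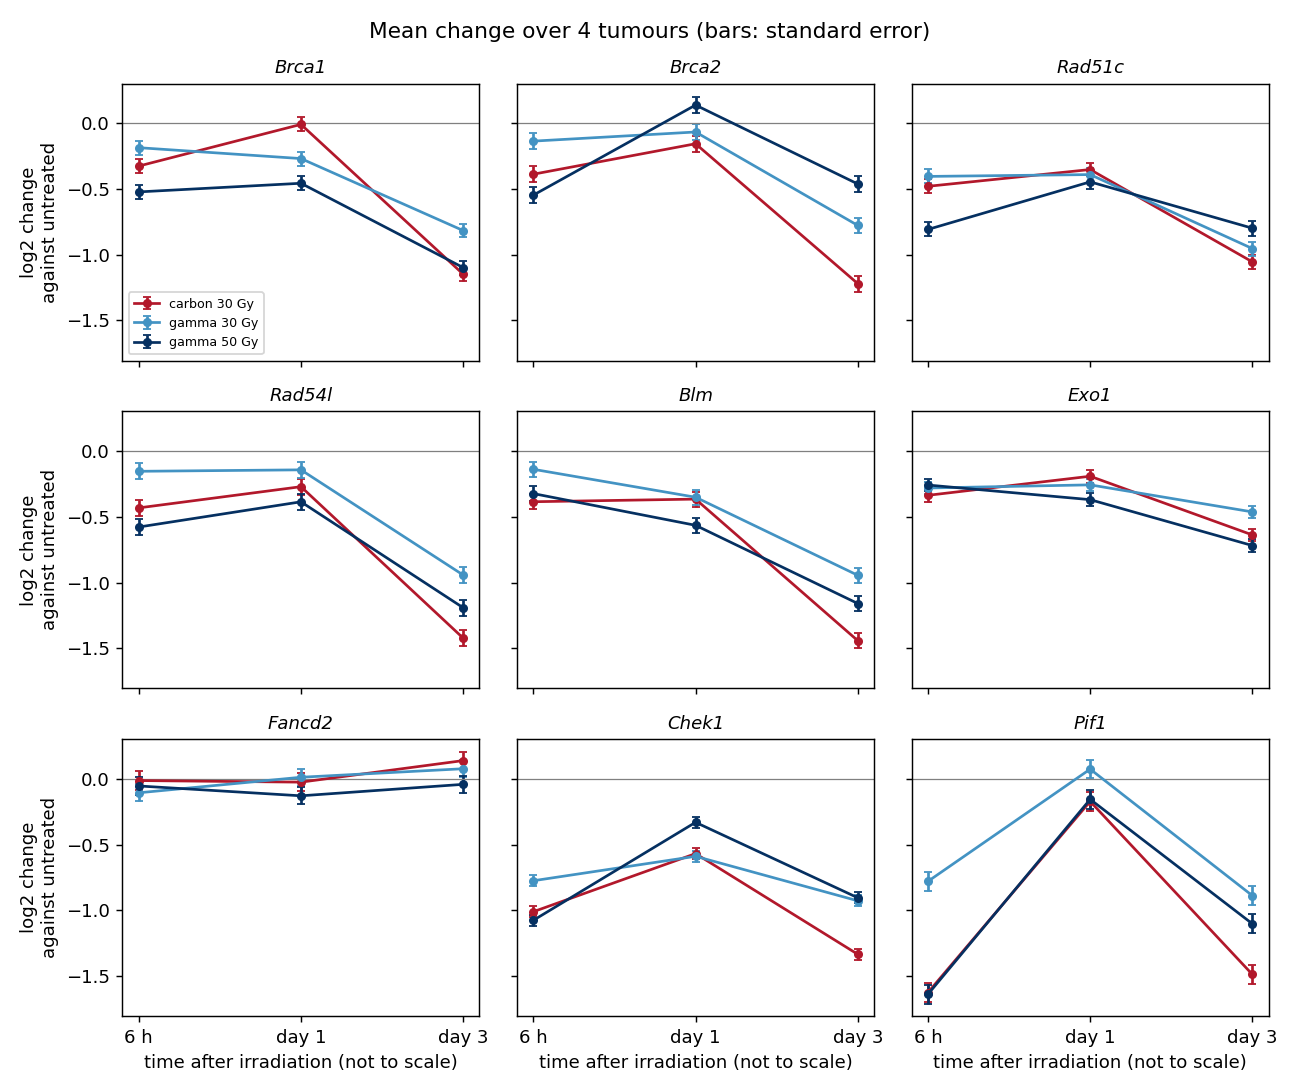
Log2 change from the untreated arrays of the same tumour and arm, 1 panel a gene, by treatment (colour) and time (x axis, not to scale). Points are means over the 4 tumours, with bars for the standard error. The lines of 8 genes are lowest at day 3 or at 6 h, and that of Fancd2 stays between -0.13 and 0.14.

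Carbon ions were set against gamma rays at the matched dose of 30 Gy by the difference of the responses. At 6 h 5 members fell further after carbon ions (6.62% of all genes did), namely Pif1 by -0.84 (SE 0.10, adjusted p = 3.7e-09), Rad54l by -0.28, Brca2 and Blm by -0.25 each and Chek1 by -0.24. The calls of Brca2 and Blm had adjusted p of 0.0347 and 0.0292 and were lost without any of 13 and 12 of the 32 arrays, and that of Rad54l was lost without 1, a SCCVII array at 6 h after gamma rays. The count lay between 3 and 5 over these omissions. At day 1 only Brca1 differed, higher after carbon ions by 0.26 (adjusted p = 0.00711), where 17.1% of genes were higher, and the dimmer Brca1 probe gave -0.06. At day 3 7 members were lower after carbon ions, against 20.2% of genes: Pif1 by -0.60, Blm by -0.50, Rad54l by -0.48, Brca2 by -0.44, Chek1 by -0.41, Brca1 by -0.33 and Exo1 by -0.17. The Exo1 call was lost without any of 16 of the 32 arrays. The Rad51c difference did not pass at 6 h (-0.08, 95% interval -0.23 to 0.08) or at day 3 (-0.10, 95% interval -0.25 to 0.05), nor did that of Fancd2.

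These differences depend on the untreated arrays, which differed between the arms. Setting the irradiated arrays directly against each other, which is what remains when both arms share all 4 untreated arrays, Pif1 at 6 h was still lower after carbon ions (-0.31, adjusted p = 0.000234), but Chek1 (0.22) and Brca2 (0.24) were then higher. At 6 h 6 members differed in this way, 4 lower and 2 higher, where 55.4% of all genes differed. At day 1 7 members differed, 6 of them higher after carbon ions (64.6% of genes in either direction), with Chek1 at 0.48 and Brca2 at 0.40. At day 3 Brca1 (-0.40), Blm (-0.29), Fancd2 (-0.25) and Exo1 (-0.24) were lower (33.4% of genes), while Brca2 and Chek1, both 0.05, and Pif1, -0.06, did not differ. Averaged over the tumours, Brca1, Blm and Exo1 at day 3 and Pif1 at 6 h were thus lower after carbon ions by both calculations. The mean of Brca1 at day 1 was higher by both (0.26 and 0.19). Single tumours did not all follow these means in the direct differences. For Pif1 at 6 h these were -1.28 in NR-S1 and -0.88 in #8520, but 0.61 in NFSa and 0.31 in SCCVII, the last not past the threshold. For Brca1 at day 1 #8520 gave 1.14 and SCCVII -0.62, and the others did not pass. At day 3 Brca1, Blm and Exo1 each passed as lower in NR-S1 and SCCVII only. Each beam was given in an arm of its own, so arm and beam cannot be told apart for any of these differences, including those found by both calculations.

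The tumours carried these differences unequally. In NR-S1 irradiated tumours, set directly against each other, 8 members were lower after carbon ions than after gamma rays at 6 h (18.7% of all genes) and 8 at day 3 (29.2%), with Pif1 at -1.28 and Brca1 at -1.003 at 6 h, and Chek1 at -1.09 and Brca1 at -0.98 at day 3. NR-S1 was also the tumour in which 7 members had lower responses at both times (7.63% and 21.2% of genes). In NFSa irradiated tumours 7 members were higher after carbon ions at 6 h (35.3% of genes), led by Chek1 at 0.89, although by the responses Chek1 (-0.63) and Brca2 (-0.66) were lower. In #8520 at day 1 the responses of Brca1, Pif1, Blm and Rad54l were higher after carbon ions, by 1.11, 0.80, 0.76 and 0.43 (27.3% of genes were higher), and the direct differences were 1.14, 1.33, 0.66 and 0.81.

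**Figure D4:**
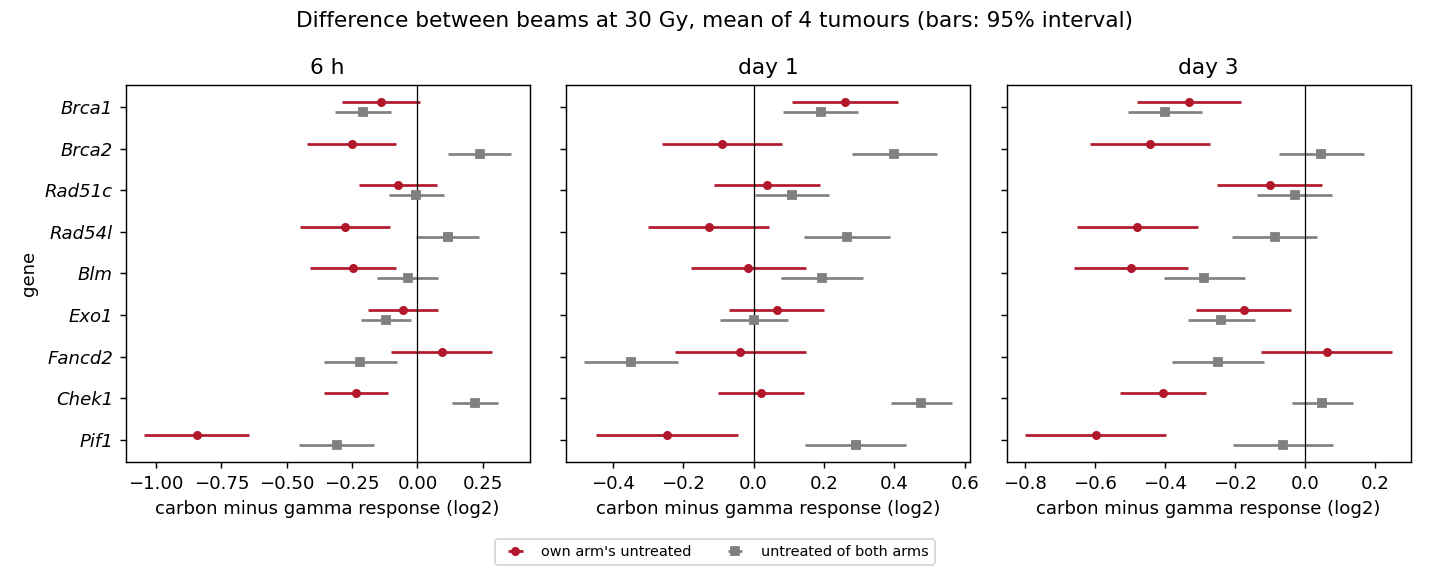
Difference between the carbon and the gamma response at 30 Gy, in log2 units with 95% intervals, for each gene (rows) and time (panels), calculated against the untreated arrays of each arm and against those of both arms. Most values at 6 h and day 3 lie below 0 with separate untreated arrays, and Chek1 and Brca2 lie above 0 with shared ones, at 6 h by 0.22 and 0.24.

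The gamma doses shared their untreated arrays, so the difference between doses compares irradiated arrays only. At 6 h 7 members were lower after 50 Gy than after 30 Gy, against 16.2% of all genes: Pif1 by -0.86 (adjusted p = 1.7e-14), Rad54l by -0.42, Brca2 by -0.41, Rad51c by -0.40, Brca1 by -0.34, Chek1 by -0.30 and Blm by -0.18. The Blm call was lost without any of 5 of the 16 arrays. With the dimmer Brca1 probe the Brca1 difference was -0.12 and did not pass (adjusted p = 0.068). Exo1 (0.02) and Fancd2 (0.05) did not differ. By tumour the members' median difference was -0.57 in NR-S1, -0.59 in #8520, -0.25 in SCCVII and -0.01 in NFSa. The medians of all genes there were -0.01, -0.07, -0.02 and 0.01. For Pif1 the dose difference was -1.39 in NR-S1, where it read 5.89 and 7.46 after 30 Gy and 2.34 and 2.72 after 50 Gy, and -1.76 in #8520, where it read 4.86 on both arrays after 30 Gy and 1.37 and 1.51 after 50 Gy. In SCCVII it was -0.49, and in NFSa 0.21, which did not pass. At day 1 5 members were lower and 2 higher after 50 Gy (43.1% of genes lower, 19.6% higher), and at day 3 5 were lower and 2 higher (35.5% and 23.9%). Those later counts include the 8 arrays with brighter dim probes. Over NR-S1 and NFSa alone, which leaves out these arrays and 2 of the 4 tumours at once, 1 member passed at each time, and the arrays and the tumours cannot be told apart here. The share of all genes over these 2 tumours is not given, so the smaller count is not a result about the members in particular.

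The pattern over time was also tested on its own. From 6 h to day 1 after carbon ions 6 members rose, Pif1 by 1.45, Chek1 by 0.44, Brca1 by 0.32, Brca2 by 0.23, Rad54l by 0.16 and Exo1 by 0.14, where 20% of all genes rose. With the dimmer Brca1 probe the value of Brca1 was -0.05. The calls of Rad54l and Exo1 were lost without any of 9 and 2 of the 16 arrays. By tumour the members' median change over this interval was 0.80 in NR-S1, 0.21 in SCCVII, -0.04 in NFSa and 0.002 in #8520. The medians of all genes there were 0.02, 0.001, -0.08 and 0.16. Averaged over the tumours, the members' median was 0.02 after 30 Gy and 0.19 after 50 Gy of gamma rays (all genes 0.001 and -0.07). From day 1 to day 3 8 members fell after each treatment, against 45.3% of genes after carbon ions, 24.8% after 30 Gy and 22.8% after 50 Gy of gamma rays. Fancd2 alone among the members rose over that interval after carbon ions, by 0.16 (adjusted p = 0.0265), where 19.7% of genes rose, a call lost without any of 7 of the 16 arrays.

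By the F test the carbon response differed between tumours for 6 members at 6 h, 5 at day 1 and 7 at day 3, where 45%, 58.3% and 61.9% of all genes differed. The response to 30 Gy of gamma rays differed for 7, 9 and 8 members, where 36.9%, 52.5% and 56% of genes did, with an adjusted p of 5.3e-17 for Chek1 at day 1. At that time 8 members were lower in #8520 (27.2% of genes), with a median over the 9 of -1.08, including Chek1 at -1.69, Blm at -1.43, Rad54l at -1.13, Brca1 and Pif1 at -1.08 and Brca2 at -0.82. In SCCVII 1 was lower and 3 were higher (8.02% and 14% of genes), Pif1 by 0.79, Brca2 by 0.45 and Rad54l by 0.34. NR-S1 had 1 lower (12.6%), and NFSa 1 lower and 1 higher (8.97% and 18%), the latter Pif1 by 0.59. In #8520 at that time 20 of 21 proliferation genes were lower as well (median -1.11), and none of 8 T and NK cell markers was called. Over all tumours and treatments 189 of the 324 single responses of members were called lower and 9 higher, where 19.9% and 16.6% of responses over all genes were.

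**Figure D5:**
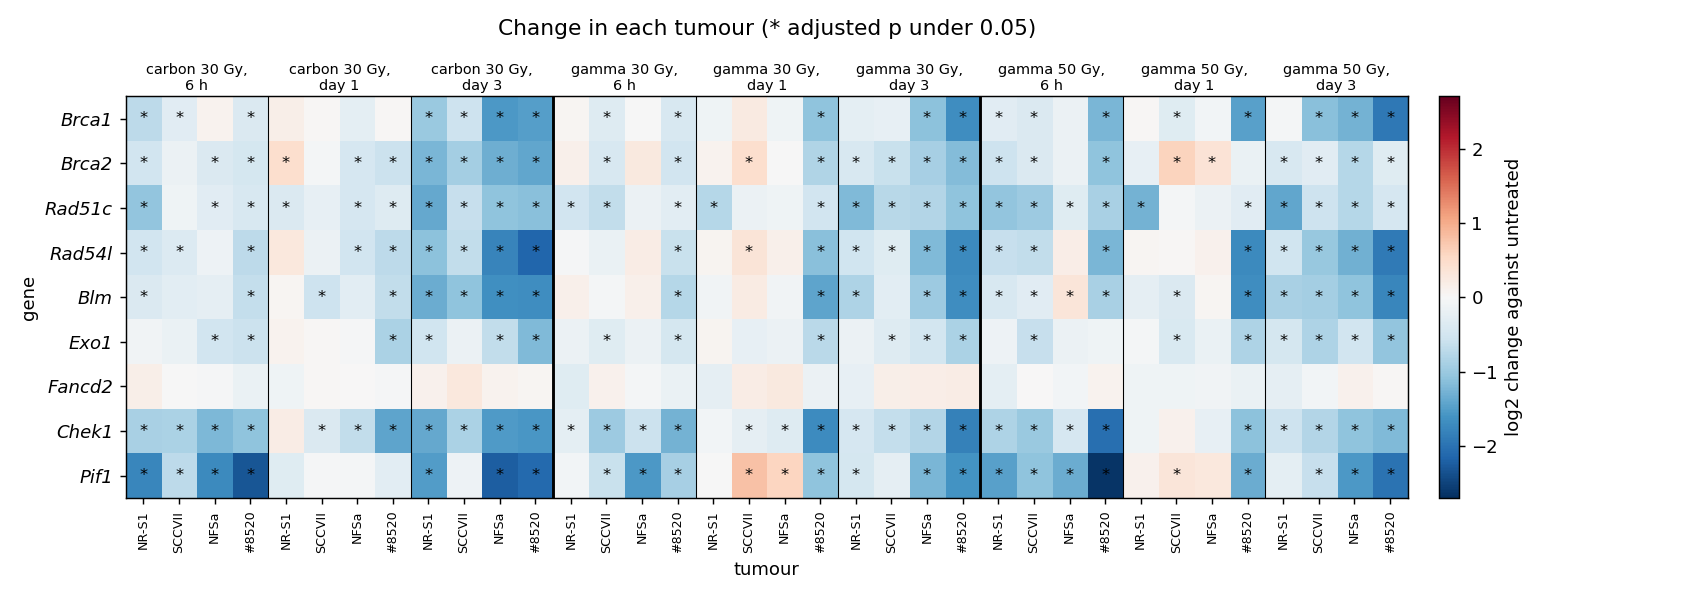
Log2 change of the 9 genes (rows) in each tumour, treatment and time (columns), with blue for lower, red for higher and a star for an adjusted p below 0.05. Most #8520 gamma entries are low from 6 h on, the Fancd2 entries are near 0 throughout, and the day 3 carbon entries are low in all 4 tumours except Pif1 and Exo1 in SCCVII.

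The rest of the pathway is given beside the shares over all genes, of which 19.5% were lower and 21% higher at 6 h after carbon ions, and 41.8% and 26.4% at day 3. Of 24 other homologous recombination genes tested, 10 were lower and 5 higher at 6 h after carbon ions (median -0.12), and 18 were lower and none higher at day 3 (median -0.31). The resection nuclease Dna2 fell by 0.72 at 6 h (adjusted p = 1.5e-18) and the BLM partner Rmi2 by 0.50. The share higher was close to that of all genes, and included the helicase Recql5 (0.36) and the nuclease subunit Mus81 (0.35). At day 3 Recql4, a helicase of the BLM family, changed by -1.09 and Gen1, a nuclease that cuts recombination junctions, by -1.03. Of 12 other Fanconi genes, 8 were lower at 6 h (median -0.28) and 11 at day 3 (median -0.72), while the Fancd2 probe passed at neither time. Fanci, whose protein pairs with FANCD2, changed by -1.16 at day 3 and Fancb, of the core complex, by -1.38.

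Of 21 other checkpoint genes, 13 were lower at 6 h (median -0.22) and 20 at day 3 (median -0.47), with none higher at either time. Cdc25c, the phosphatase that CHEK1 restrains, changed by -1.40 at 6 h (adjusted p = 1.3e-25) and -1.63 at day 3, and Wee1, the kinase that opposes it, by -0.88 at 6 h. Of 9 end joining genes, 4 were lower and 2 higher at 6 h, the latter again near the share of all genes, and 7 were lower at day 3. Xrcc6 and Xrcc5, which code for the Ku proteins that bind broken ends, changed by -0.52 and -0.40 at 6 h, while the polymerase Polm and the ligase Lig4 rose by 0.30 and 0.28. Polq, of the alternative end joining route, changed by -1.29 at day 3.

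All 21 proliferation genes were lower at day 3 after carbon ions (median -1.23) and 20 were at 6 h (median -0.60), so the members fell together with genes such as E2f7 (-1.98) and Mybl2 (-1.70 at day 3). The summed intensity of these 21 genes and Mki67 was 705 to 1060 on untreated carbon-arm arrays, 465 to 717 at 6 h and 270 to 676 at day 3. SCCVII held the highest at day 3, 634 to 676. Mki67 was bright (mean log2 6.22), was missing on 24 of the 88 arrays and added nothing to the sum there. These sums therefore also depend on where Mki67 was missing. Pcna, the replication clamp, fell by 0.24, 0.26 and 0.68 over the 3 times. Markers of other cells moved in both directions. At 6 h 6 of 6 neutrophil markers were higher (median 2.74), with sums over the arrays of 12.1 to 100 untreated and 48.8 to 349 at 6 h. T and NK cell markers were higher for 2 of 8 and lower for 1 at 6 h. At day 3 8 of 8 were higher (median 1.97), with sums of 12.3 to 35.1 untreated and 69.9 to 121 at day 3. The T cell markers Cd3e and Cd8a lay under the filter on dim probes and are not among the 8, but the T and NK cell sums include them. Macrophage markers were higher at day 3 for 7 of 8 (median 1.14), fibroblast and matrix markers for 5 of 7 (median 0.21), and skeletal muscle markers for 4 of 7, with 1 lower. Endothelial markers were higher for 1 of 4, and keratinocyte and epithelial markers lower for 5 of 7 (median -0.28). At day 3 after 30 Gy of gamma rays, where the members also fell, 4 T and NK markers were higher and 3 lower. The part of these cells in the members' changes was not tested.

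Across the 36 irradiated groups the member changes were set against those of every other gene. The genes whose change was most like the mean of the 9 members were Smc2 (r = 0.98), Cenpi (0.97), Ncapg (0.97), Ttk and Topbp1 (0.96 each), out of 13338 genes ranked. Rad54l followed the mean of the other 8 members most closely (r = 0.94), then Brca1 and Blm (0.85 each), Chek1 (0.83), Brca2 (0.82), Pif1 (0.70), Exo1 (0.69) and Rad51c (0.44), and Fancd2 did not (-0.23). With the mean of the proliferation genes the values were 0.95 for Rad54l, 0.92 for Brca1, 0.89 for Chek1 and 0.31 for Rad51c. The 28 pairs of members without Fancd2 correlated at 0.15 to 0.94, with a median of 0.67. These values describe groups that share untreated arrays, and no test was made of them.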

How the data were processed

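RNA was measured in 88 tumour samples, 44 groups of 2. Per the labels' protocols, total RNA was extracted with ISOGEN and RNeasy, labelled with Cy5 and hybridised to one-colour arrays under a CodeLink labelling protocol. The deposited intensity values, made by the authors, were taken as linear, background-subtracted and scaled, since some lie below 0 and the array medians are near 1. How this was done was not given in the sources used here.

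Of 36227 probes, 21615 had 1 gene symbol, 681 several and 13931 none. Symbols were updated through Entrez numbers. The members and all gene lists were chosen with earlier results of these data known.

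The deposited intensities were put on a log2 scale, with values not above 0 taken as missing. Genes in the dimmest 25% or with values on under 80% of arrays were left out. One limma model (limma 3.58.1, R 4.3.3) with 44 group means was fitted (44 residual degrees of freedom, 7.3 prior degrees of freedom). Contrasts were averaged over the tumours or taken in 1 tumour, and p-values were adjusted by Benjamini-Hochberg over all genes of a contrast, with a threshold of 0.05. Intervals are 95% intervals of this fit, unadjusted. The number of arrays limits the precision. The genes named were the 9 members, up to 2 genes of each list in each direction with the largest called change after carbon ions at 6 h and day 3, Pcna, and the 5 genes most like the members. The procedure was tested on simulated data. Alternatives tried were quantile normalisation, median centring, an offset before log2, other filters, the mean of all probes, shared untreated arrays, a trended prior, the replicate number as a block and leaving out each array. Arrays with the same number in different groups of a tumour and arm did not deviate together throughout (68 pairs of groups, r from -0.19 to 0.39, median 0.015, 16 above 0.1, of which 9 of the 11 pairs in the NFSa gamma arm), so the number was not taken to pair the samples.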

Additional observations from a re-analysis of the deposited data

Results flagged for a closer look

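Differences between tumours were picked out where the test of the difference passed. For the carbon response this held for 6 members at 6 h, 5 at day 1 and 7 at day 3, and for the response to 30 Gy of gamma rays for 7, 9 and 8 members (limma F test). Over all genes it held for 45%, 58.3% and 61.9% after carbon ions, and for 36.9%, 52.5% and 56% after gamma rays. Among these members, Brca2 at day 1 after carbon ions was lower in #8520 (-0.58) and higher in NR-S1 (0.44), 1.02 apart on the log2 scale. At day 1 after 30 Gy of gamma rays Pif1 was lower in #8520 (-1.08) and higher in SCCVII (0.79), 1.87 apart. The same pair of tumours was 1.47 apart for Rad54l (-1.13 and 0.34) and 1.27 apart for Brca2 (-0.82 and 0.45).

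After 50 Gy the difference between tumours was not tested, and members were picked out for calls in opposite directions. Blm at 6 h was lower in #8520 (-0.88) and higher in NFSa (0.33), 1.22 apart. Pif1 at day 1 was lower in #8520 (-1.35) and higher in SCCVII (0.32), 1.67 apart, and both of these groups are among the 8 arrays with brighter dim probes.

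Of 36 sets of 4 untreated arrays, 1 for each gene and tumour, 0 had an extreme array by Dixon's criterion. Each set joined 2 arrays of the carbon arm with 2 of the gamma arm, and the arms differed, in NFSa for all 9 members. Chance meets the criterion in about 1 in 20 sets only where all 4 arrays are of the same kind. In a set split into pairs it is hardly ever met, so no conclusion about single arrays is drawn from this count.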

How the results depend on the processing

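Most counts and calls kept their direction and their side of the threshold. Given here are the counts that moved by over 1.5 times and the called values that changed sign, and their cause was not tested. Shares of all genes are not given for these counts, except for the beam difference with the untreated arrays of both arms. A moved count is therefore not a result about the members in particular. Member values that kept their sign but lost a call, or that gained one, numbered 9 and 4 under quantile normalisation, 4 and 1 under median centring, 3 and 0 without a filter, 4 and 3 with the mean of all probes, 4 and 18 with the untreated arrays of both arms, 15 and 3 without the 8 brighter arrays and 1 and 2 with the dimmer Brca1 probe, and 0 and 1 each with the offset, the stricter filter and the trended prior. The small calls of Blm and Rad54l after 30 Gy of gamma rays at 6 h and of Pif1 after carbon ions at day 1 were among those lost. At day 1 the beam difference, which passed for 1 member, passed for 2 under quantile normalisation and under median centring, and for 0 with the mean of all probes or with the dimmer Brca1 probe, an alternative chosen after seeing the data. Leaving out each array in turn gave 1 to 2 members for that count and 3 to 5 for the beam difference at 6 h. Under quantile normalisation the dose difference passed for 2 members at day 1 and 3 at day 3. Values that changed sign there were Pif1 after 50 Gy at day 1 (0.0666), Brca1 (0.0167) and Exo1 (0.0657) in the dose difference at day 1, and Exo1 from 6 h to day 1 after 50 Gy (0.0563).

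With the untreated arrays of both arms, 9 members passed after 30 Gy of gamma rays at day 1, 8 lower and 1 higher. That count has no share of all genes beside it. The beam difference passed for 7 at day 1, where 64.6% of all genes passed. At day 3 it passed for 4, all lower, where 33.4% of genes were lower. Brca2 (0.0873) and Pif1 (0.0957) after carbon ions at day 1 and Brca2 after 50 Gy at day 1 (-0.1078) changed sign, as did the beam differences of Brca2 (0.2375), Rad54l (0.1150) and Chek1 (0.2204) at 6 h and of Brca2 (0.0466) and Chek1 (0.0494) at day 3. Beam differences that had not passed also turned and passed: Fancd2 at 6 h (-0.2180) and day 3 (-0.2490), and Brca2 (0.3997), Rad54l (0.2651), Blm (0.1945) and Pif1 (0.2901) at day 1. Fancd2 was among the 9, as higher (0.1670). This alternative was not run for doses, intervals and untreated levels, in which the untreated arrays cancel or are the measure.

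Without the 8 arrays with brighter dim probes, over NR-S1 and NFSa only (chosen after seeing the data, and leaving out 2 tumours), 2 members passed after 50 Gy at day 1 and 1 in the dose difference at either later time. There Rad54l (0.0786) and Pif1 (0.2014) after 50 Gy at day 1, Brca1 (0.0971) and Blm (0.0089) in the dose difference at day 1, Brca1 (0.0208) and Rad51c (-0.1006) in that at day 3, and Rad51c (-0.0229) and Exo1 (0.0287) from 6 h to day 1 after 50 Gy changed sign, and Chek1 in the dose difference at day 3 turned from 0.02 to -0.1957 and passed. With the dimmer Brca1 probe, Brca1 changed sign in the beam difference at day 1 (-0.0635) and from 6 h to day 1 after carbon ions (-0.0485), and turned from 0.07 to -0.3002 and passed from 6 h to day 1 after 50 Gy.

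With the replicate number as a block, all 19 counts stayed within 1.5 times, for example 8, 6 and 8 members after carbon ions. Of 117 member values 2 lost their call, Pif1 after carbon ions at day 1 (-0.17, adjusted p = 0.0627) and Blm after 30 Gy of gamma rays at 6 h (-0.14, adjusted p = 0.0511). The block could not be fitted at day 1 of the gamma arm, whose arrays carry other numbers. Offset, filters and trended prior left all 29 counts within 1.5 times. Rad51c and Brca2 were the dimmest of the members' probes.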

Other observations

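A probe annotated to both Rad54l and Lrrc41 was not used for Rad54l, since its signal cannot be assigned to 1 gene. Its mean log2 change after carbon ions was -0.13, -0.02 and -0.27 over the 3 times, where the Rad54l probe gave -0.43, -0.27 and -1.42. The dimmer Brca1 probe gave mean changes of -0.13, -0.23 and -0.42 after 30 Gy and -0.25, -0.55 and -0.74 after 50 Gy of gamma rays. Mki67, a proliferation marker, had missing values on 24 of the 88 arrays and was not tested.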
